A study of Mus musculus with 12 samples.

Results

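The cerebral cortex of mice lacking both copies of Mir137 was compared with that of mice lacking 1 copy, to describe what goes with loss of the second copy. Any other difference between these groups of libraries cannot be told apart from that loss. Mir137 encodes miR-137, a microRNA enriched in brain. All 23951 gene rows of the table that sets these genotypes side by side were used, with no wild-type value in the main folds or calls. Some alternative settings drew on the comparisons with wild type, and wild-type levels are given beside some genes. The knockout group (KO, labelled miR-137 KO) and the heterozygous group (Het, labelled miR-137/+) had 4 libraries each, 8 of the 12 libraries of the series. The other 4 came from wildtype mice (WT). Every mouse was of strain C57BL/6. The sources used here give no age, no sex and no account of how the allele was made. Libraries were numbered in pairs within a genotype, the protocol speaks of duplicated samples, and no label says that each came from a separate animal. If some did not, the spread behind the authors' p-values is partly that of repeat libraries and may be technical.

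MicroRNAs are short RNAs that guide Argonaute proteins to messenger RNAs by pairing of the seed, bases 2 to 8 of the microRNA, mostly with the 3′ UTR, and they lower the stability and translation of their targets. Loss of a microRNA is therefore known to raise direct targets, while genes further downstream can move either way. In the brain miR-137 is known for roles in neuronal maturation and synapses, and the human MIR137 locus is associated with schizophrenia. The mature strand and the hairpin it is cut from are shown because the search for target sites below rests on the seed. RefSeq places the mature strand at chr3:118433901-118433923 and the hairpin at chr3:118433857-118433929, both on the plus strand of GRCm38.p6. Capitals mark the seed in the mature strand and the whole mature strand in the hairpin, 5′ to 3′.
miR-137-3p: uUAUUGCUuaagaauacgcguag
Mir137 hairpin: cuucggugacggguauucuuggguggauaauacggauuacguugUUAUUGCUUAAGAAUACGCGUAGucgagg

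Each genotype has 1 pooled value per gene, given as RPKM, a read count scaled by transcript length and library size, so values carry no SD and library depth is unknown. Rises and falls are named only for genes whose adjusted p, written q, is below 0.05 in the authors' deposited table, and these genes are termed called. Where a rise or fall has no q in its paragraph or where the gene is first described, q was 0.00517, the minimum that the authors' deposited table holds. Log2 folds compare log2(RPKM + 1) between genotypes, a scale that shrinks the change of low genes, and linear ratios are given only where both genotypes reached 1 RPKM. Counts of gene groups cover the 13554 genes that reached 1 RPKM in either genotype, the measured genes. The tissue is bulk, so fewer cells of a type and less RNA per cell cannot be told apart. Markers of cortical excitatory neurons were present in both genotypes. Slc17a7, the vesicular glutamate transporter of cortical neurons, stood at 487 RPKM in Het and 396 in KO. Tbr1, a layer VI factor, stood at 16.7 and 14.2, and Cux2, an upper-layer factor, at 2.78 and 3.17.

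Loss of the second Mir137 copy went with few changes of modest size. Of 14062 genes tested by the authors, 263 were called, or 1.87%, with 129 higher and 134 lower in KO. For scale, 1380 gene rows had an unadjusted p below 0.05 in the authors' deposited table. Counts of list members at this cutoff, given below, are to be read against that background among the 14062 genes tested. Among the measured genes 126 rose, or 0.930%, and 132 fell, or 0.974%. The median log2 fold of all measured genes was 0.00, and the middle of the distribution ran from -0.11 to 0.11 (quartiles). Called genes with at least 1 RPKM in both genotypes had a median ratio of 1.59 where they rose and 1.56 where they fell. The smallest called differences were 1.33-fold up and 1.34-fold down. Past 2-fold on the log2(RPKM + 1) scale there were 8 called rises and 11 called falls. Of these falls, 3 were rows listed at exactly 0 in KO, described next.

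Changes past 1.5-fold were unevenly split, and rows listed at 0 made up most of the excess. By this measure 245 measured genes were lower in KO and 105 were higher, and 226 of these 350 were not called. Of the 245, 138 were listed at exactly 0 in KO. These rows were almost all short RNAs: 133 of the 138 were microRNA, small nucleolar RNA or small Cajal body RNA genes. Leaving out rows listed at 0 in either genotype, 107 genes were lower and 95 higher past 1.5-fold. Among all 1176 rows of these short RNA classes, 178 were above 0 in Het and 53 in KO, and 167 were above 0 in WT. Only 2 short RNA rows, Mir6236 and Mir568, were called. Mir6236 stood at 2136 RPKM in Het and was listed at 0 in KO, and Mir568 stood at 316 and was listed at 0, with q = 0.00879 in the authors' deposited table. Another called row listed at 0 in KO was Gm20594, at 157 RPKM in Het. An exact 0 among values of this kind can be a failed estimate, so no fold is given for such rows.

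**Figure D1:**
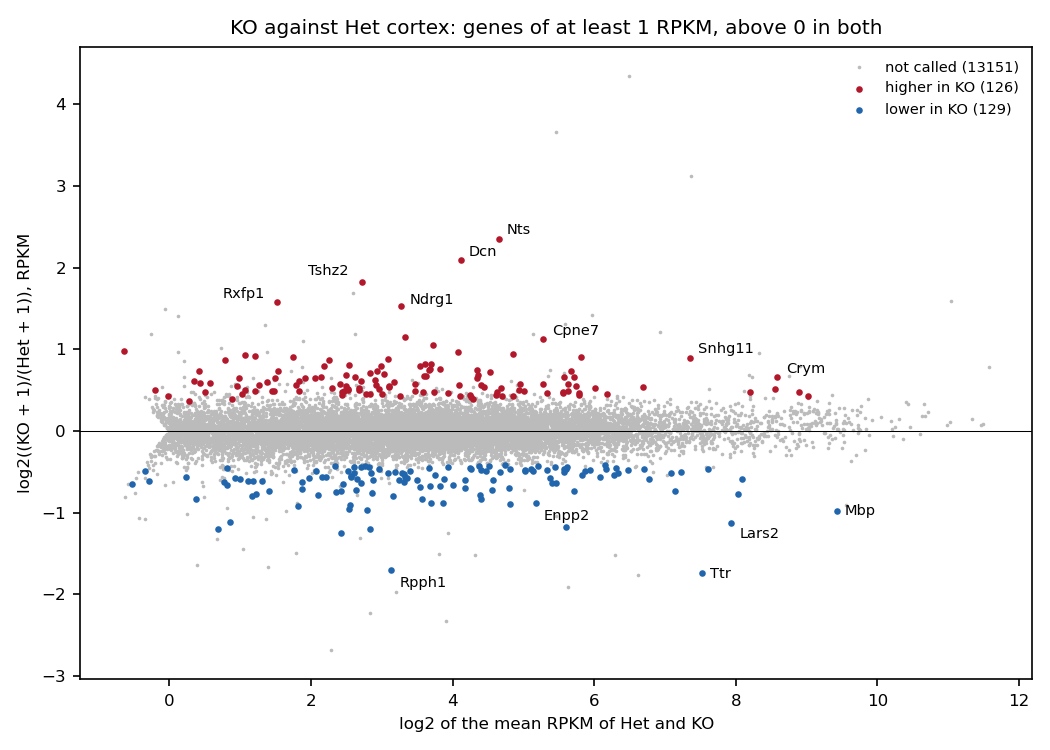
Difference between KO and Het, as log2((KO + 1)/(Het + 1)) of RPKM, against the log2 mean RPKM of both genotypes, for measured genes above 0 in both. Each point is a gene: red points are the 126 called higher in KO, blue points the 129 called lower, and grey points were not called; Nts and Dcn lead the called rises, and Ttr and Rpph1 (q = 0.0392, the authors' deposited table) the called falls.

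The targeted gene could not be read from these libraries. Mir137 was listed at 0 RPKM in Het, KO and WT, and since its hairpin has 73 bases the row checks no genotype label. Dpyd, the neighbouring gene that encodes an enzyme of pyrimidine breakdown, stood at 2.94 RPKM in Het and 3.18 in KO (q = 0.958, the authors' deposited table). The series title names Pde10a, an enzyme that degrades both cyclic nucleotide second messengers. Pde10a stood at 35.4 RPKM in Het and 27.4 in KO, and this difference did not pass the test (q = 0.326, the authors' deposited table). Its WT level was 12.7 RPKM in the separately normalized table of KO against WT, so both mutant genotypes were above WT. Markers of striatal projection neurons, the cells where Pde10a is most abundant, likewise stood far above WT in both. Penk, an enkephalin precursor, stood at 113 RPKM in Het, 103 in KO and 10.1 in WT. Ppp1r1b, a phosphatase inhibitor under dopamine control, stood at 173, 179 and 20.6 RPKM. None of the 27 measured striatal markers, a list that holds Pde10a itself, was called between KO and Het, although in the authors' deposited table, at an unadjusted p below 0.05, 4 were higher and 3 lower. Their summed level was 802 RPKM in Het and 845 in KO. The part of these markers in the Pde10a values was not tested.

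Of 26 measured genes published as miR-137 targets, Pde10a among them, 1 rose and 1 fell, and their median log2 fold was 0.00. Wbp1l, a gene at a schizophrenia-associated locus, rose from 12.8 to 17.9 RPKM, a ratio of 1.41 (q = 0.0123, the authors' deposited table). Ptgs2, the inducible cyclooxygenase, fell from 3.20 to 1.75 RPKM. Targets that act at the synapse stayed below the threshold. Syt1, the calcium sensor of vesicle release, stood at 299 RPKM in Het and 283 in KO, and Nsf, which recycles the fusion machinery, at 272 and 228. Cplx1, which clamps and promotes fusion, stood at 245 and 264, and Gria1, an AMPA receptor subunit, at 154 and 158. Chromatin targets did the same: Ezh2, the methyltransferase of the polycomb complex, stood at 7.71 and 6.62 RPKM, and Kdm1a, a histone demethylase, at 36.4 and 38.4. After Pde10a, the uncalled targets nearest to the threshold were Esrra, an orphan nuclear receptor, at 18.5 and 23.6 RPKM, and Akt2, a kinase of insulin signalling, at 48.8 and 57.1. Esrra had q = 0.464 and Akt2 q = 0.598 in the authors' deposited table. All of the 13 targets above 0 and the 13 below 0 on the log2 scale lay between -0.61 and 0.46.

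Annotated 3′ UTRs were searched for the seed match. The longest 3′ UTR in GENCODE M21 (GRCm38) could be joined by gene name to 12288 measured genes, 90.7% of them. A full match, the 8mer, is AGCAATAA on the transcript strand. Weaker classes are the 7mer-m8 AGCAATA, the 7mer-A1 GCAATAA and the 6mer GCAATA, and each gene was counted once under its best match. Of these genes 0.968% rose and 0.977% fell. Among the 577 genes with an 8mer, 14 rose, or 2.43%, and 5 fell, or 0.867%. The median log2 fold of all 577 was nevertheless 0.00, the same as that of the 9429 genes with no match, of which 82 rose and 91 fell. Genes with a 7mer-m8 did not share the tilt, with 6 of 766 higher and 11 lower, and those with a 7mer-A1 had 6 of 643 higher and 3 lower. Genes with a 6mer had 11 of 873 higher and 10 lower. Genes with an 8mer also have long 3′ UTRs, with a median of 2584 bases against 986 where no match was found. Under the shortest annotated 3′ UTR, 307 genes held an 8mer, of which 10 rose and 3 fell.

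The same count for microRNAs that were not deleted gives a scale. With an 8mer for miR-128-3p, 13 of 755 genes rose, or 1.72%, and 5 fell. With an 8mer for miR-9-5p, 5 of 561 rose and 11 fell, and for let-7a-5p 4 of 445 rose and 6 fell. The share of risers was thus larger for miR-137 than for these 3, and that for miR-128-3p also lay above the background of 0.968%. These differences were not tested. Longer transcripts had more rises: in the longest of 10 length classes 22 genes rose and 8 fell, and in the shortest 6 rose and 10 fell.

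**Figure D2:**
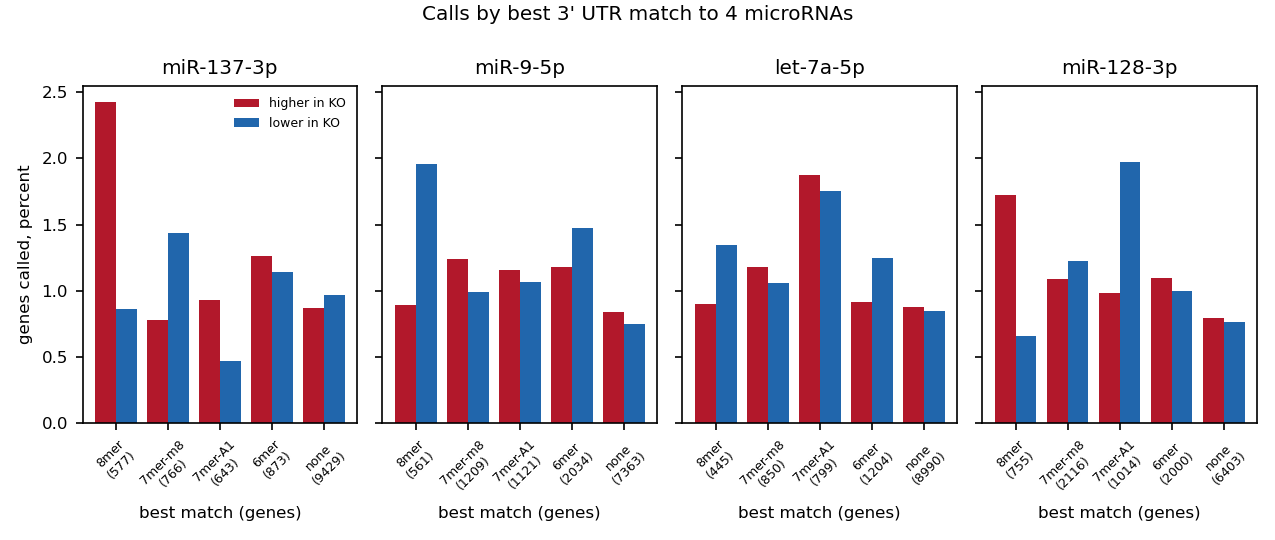
Percent of measured genes called higher (red bars) or lower (blue bars) in KO, by the best 3′ UTR match to each of 4 microRNAs, with the number of genes under each class. The bar of the miR-137-3p 8mer class stands at 2.43% higher against 0.867% lower, and the miR-128-3p 8mer class at 1.72% higher.

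The called genes with an 8mer were named after their values were seen. The largest by level among the risers was Nrep, a regulator of neuronal regeneration, from 310 to 441 RPKM (q = 0.0265, the authors' deposited table). Ybx1 and Ybx3, paralogous cold-shock-domain proteins that bind messenger RNA, both carried the match early in the 3′ UTR and both rose. Ybx1 went from 245 to 343 RPKM (q = 0.0265, the authors' deposited table) and Ybx3 from 38.0 to 63.8 RPKM. Other risers were Slc17a6, a vesicular glutamate transporter, from 9.16 to 15.1 RPKM, and Htr2c, a serotonin receptor, from 6.79 to 10.4. Car7, a cytosolic carbonic anhydrase of neurons, rose from 9.21 to 16.1 RPKM, and Ppargc1a, a coactivator of mitochondrial genes, from 8.02 to 11.2 (q = 0.0335, the authors' deposited table). Scrt1, a neuronal transcriptional repressor, rose from 16.0 to 22.01 RPKM and Caln1, a neuronal calcium-binding protein, from 20.6 to 29.1. Scrt1 had q = 0.0312 and Caln1 q = 0.0214 in the authors' deposited table. Wbp1l (q = 0.0123), Rbm19 (q = 0.0375), Rftn1 (q = 0.00517), Sik1 (q = 0.0154) and BC024139 (q = 0.0335) complete the 14, with q from the authors' deposited table. Those that fell were Epha7, an ephrin receptor, from 50.0 to 33.3 RPKM, Mbnl2, a splicing regulator, from 42.6 to 31.4, Kcnv1, a potassium channel subunit, from 11.6 to 7.33, and Ccbe1 and Sulf1. Mbnl2 had q = 0.0312 and Ccbe1 q = 0.0184 in the authors' deposited table.

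The match and its surroundings are shown for risers and for fallers, since the same 8 bases stand in both. Each run has 22 bases of the 3′ UTR, 5′ to 3′, with the match in capitals, at GRCm38 positions from GENCODE M21.
Ybx1, chr4:119278316-119278337, minus strand: gaaattccAGCAATAAgaaatg
Ybx3, chr6:131365311-131365332, minus strand: aacatctaAGCAATAAaatgga
Wbp1l, chr19:46657250-46657271, plus strand: gtattttaAGCAATAAgattca
Slc17a6, chr7:51670684-51670705, plus strand: gtgtaccaAGCAATAAgtgcaa
Htr2c, chrX:147196788-147196809, plus strand: aaagcactAGCAATAAgttgaa
Epha7, chr4:28964772-28964793, plus strand: aaaaagaaAGCAATAAtgatcc
Mbnl2, chr14:120429325-120429346, plus strand: tcaaatttAGCAATAAacagtt
Akt2, chr7:27639417-27639438, plus strand: acggtacaAGCAATAAagacac

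Akt2 is shown as a published target that holds the match and was not called. Of the 8 published targets with an 8mer Wbp1l was the only call, and Esrra, Rora, Tcf4, Mitf, Pxn, Klf12 and Akt2 did not pass the test. A match is a description of the sequence and not evidence of binding in this tissue.

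Myelin genes had the most falls of the 53 lists examined. Myelin is the lipid-rich sheath that oligodendrocytes wrap around axons, and its genes are switched on together as these cells mature. Of 28 measured myelin genes, 13 fell and 0 rose, and all 28 lay below 0, with a median log2 fold of -0.47. In the authors' deposited table, at an unadjusted p below 0.05, 20 were lower and 0 higher. The summed level of the list went from 2057 RPKM in Het to 1273 in KO. Mbp, the basic protein that compacts the membrane, fell from 912 to 462 RPKM, a Het to KO ratio of 1.97, and was the most abundant messenger RNA gene called. Mobp, another basic protein, fell from 53.8 to 34.2 RPKM (q = 0.00879, the authors' deposited table). Cldn11, the tight-junction claudin of the sheath, fell from 51.9 to 33.1 RPKM, and Mal, a raft protein that sorts membrane cargo, from 15.5 to 8.26.

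The enzymes of myelin lipid were among those that fell. Ugt8a, which makes galactosylceramide, went from 26.8 to 15.2 RPKM, a ratio of 1.76. Fa2h, which hydroxylates its fatty acids, went from 7.74 to 4.81 RPKM. Others that fell, named after their values were seen, included Cnp, Sirt2, Mog, Enpp6, Tmem88b and Ermn. In the authors' deposited table q was 0.0265 for Cnp, 0.0154 for Sirt2 and Mog, 0.0355 for Enpp6, 0.0123 for Tmem88b and 0.00879 for Ermn. Cnp went from 160 to 111 RPKM and Sirt2 from 175 to 123, the other abundant members of this group. Mag, an adhesion protein of the innermost wrap, stood at 48.1 RPKM in Het and 36.1 in KO and was not called (q = 0.160, the authors' deposited table). Bcas1, a marker of newly myelinating cells, stood at 54.8 and 49.4 RPKM.

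Genes of earlier stages of the same lineage were examined next. Among 18 measured genes of precursors and the lineage, 0 were called, 3 were lower and 0 higher at an unadjusted p below 0.05 in the authors' deposited table, and the median log2 fold was -0.10. Olig1, a lineage transcription factor, stood at 84.8 RPKM in Het and 76.8 in KO, and Pdgfra, the growth factor receptor of precursors, at 26.8 and 24.9. Whether mature and precursor lists differ in their change was not tested.

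WT values show where the Het level of myelin genes stood. In the separately normalized table of KO against WT, Mbp was at 641 RPKM in WT, between 912 in Het and 462 in KO. Mobp was at 46.6 in WT, Cldn11 at 40.5 and Ugt8a at 19.3, each likewise between Het and KO. Mal was at 16.7 RPKM in WT, above both mutant genotypes. These WT levels were set beside the others with no test, because each table was normalized on its own.

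**Figure D3:**
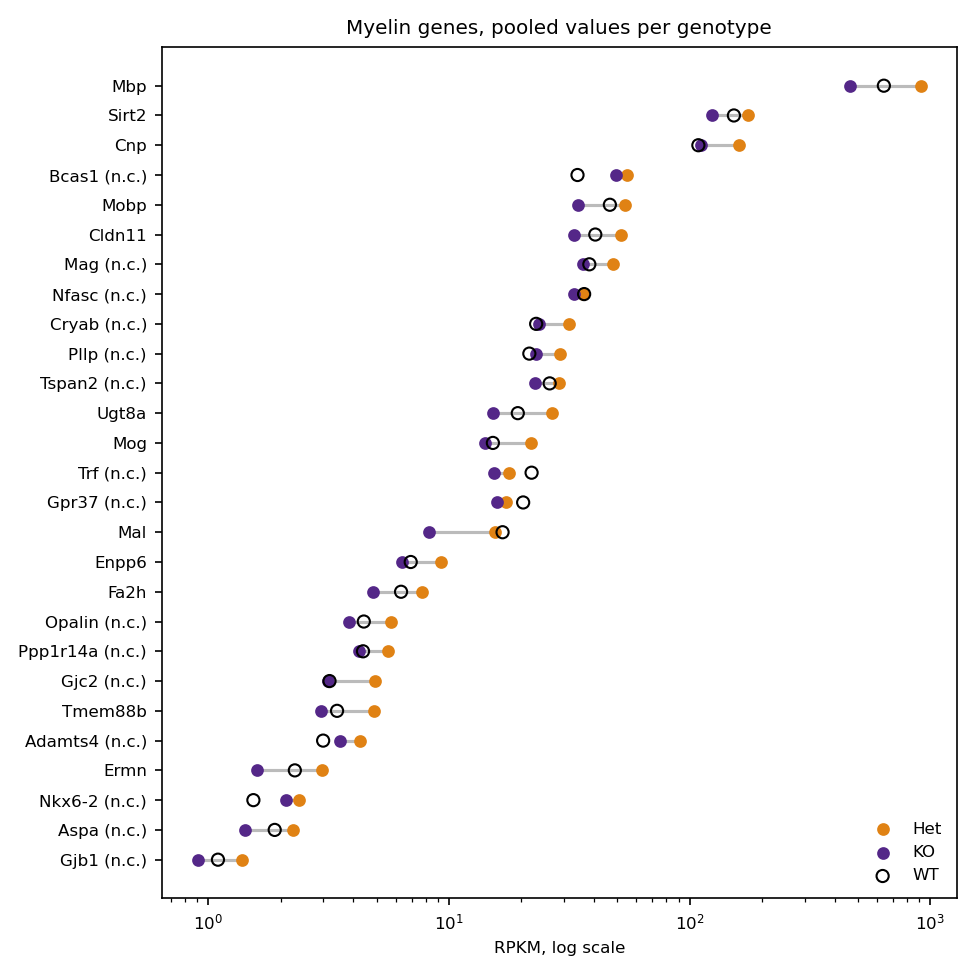
RPKM on a log scale of 27 measured myelin genes in Het (orange), KO (purple) and WT (open circles), 1 pooled value per genotype, with WT taken from the table of KO against WT; n.c. marks genes not called between KO and Het. KO lies left of Het for every gene drawn, and Mbp runs from 912 in Het to 462 in KO.

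Genes of the choroid plexus fell as well. The choroid plexus is the epithelium in the ventricles that secretes cerebrospinal fluid, and it lies outside the cortex proper. Of 10 measured markers 5 fell and 0 rose, with a median log2 fold of -0.59, and 5 further markers were under 1 RPKM in both genotypes. In the authors' deposited table, at an unadjusted p below 0.05, 8 of the 10 were lower and 0 higher. Their summed level was 382 RPKM in Het and 148 in KO. Ttr, the thyroxine carrier that this epithelium makes in bulk, fell from 283 to 83.8 RPKM, a ratio of 3.38. Enpp2, the enzyme autotaxin, which oligodendrocytes also make, fell from 47.1 to 25.1 RPKM, and Car12, a carbonic anhydrase, from 9.03 to 5.64. Folr1, a folate receptor, fell from 3.12 to 1.36 RPKM, and Aqp1, a water channel, from 1.20 to 0.440 (q = 0.0265 and 0.0214, the authors' deposited table). WT was above both mutant genotypes for all 5, with Ttr at 2028 RPKM and Folr1 at 13.6. How much choroid plexus tissue each dissection held, and its part in other results, was not tested.

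Blood, microglia, astrocyte and endothelial markers, of cells that a cortical dissection also carries, had 1 or 2 calls per list. The 6 measured globin and erythroid entries all lay below 0, with a median log2 fold of -0.45, and 3 of them were lower at an unadjusted p below 0.05 in the authors' deposited table. Of these 2 fell: Hbb-bt, an adult beta globin, from 68.0 to 29.6 RPKM, and Alas2, the first enzyme of heme synthesis in red cells, from 8.16 to 4.89 (q = 0.00879, the authors' deposited table). The summed level of the 6 entries was 828 RPKM in Het and 728 in KO. Their lowest log2 fold, -2.22, was that of an entry not called. Globin genes are near-identical copies, so how reads were split among them is uncertain. Of 20 microglia markers 2 fell, Olfml3 from 9.53 to 4.37 RPKM and Fcrls from 17.1 to 8.83, while C1qc, a complement subunit, stood at 48.3 and 54.3. The microglia median was -0.10. Of 20 astrocyte markers 1 fell: Aqp4, the water channel of astrocyte endfeet, from 68.2 to 48.4 RPKM (q = 0.0184, the authors' deposited table). The astrocyte median log2 fold was 0.06. Of 18 endothelial markers 1 rose, Vwf, the clotting factor carrier, from 1.46 to 2.22 RPKM (q = 0.0335, the authors' deposited table), and the endothelial median was 0.05. Sex-linked genes were not called: Xist, which the inactive X of females expresses, stood at 34.6 RPKM in Het and 34.5 in KO. The Y-linked Ddx3y stood at 8.92 and 8.63, so the libraries of each genotype together held RNA of both sexes.

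Some extracellular matrix genes rose, and of those given here Dcn was among the 15 largest called rises. Dcn, the collagen-binding proteoglycan decorin, rose from 5.98 to 28.7 RPKM, a ratio of 4.80. Among 18 measured collagen genes 3 rose and 0 fell (5 and 0 at an unadjusted p below 0.05, the authors' deposited table). Col6a1 rose from 8.28 to 15.03 RPKM and Col6a2, its partner chain in collagen VI, from 3.08 to 6.46. Col5a1, a fibrillar collagen, rose from 1.38 to 2.49. The abundant vessel collagen Col4a1 stood at 16.9 and 18.2 RPKM and was not called. Dcn and Col6a1 were the 2 called members among 15 measured markers of meninges and fibroblasts, and the summed level of that list was 118 RPKM in Het and 141 in KO. The median log2 fold of these 15 markers was -0.03, and Col3a1, a defining fibroblast collagen, stood at 5.37 and 4.94 RPKM. Dcn was at 31.9 RPKM in WT, Col6a1 at 12.9 and Col6a2 at 4.54.

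Markers of deep cortical layers had the most rises of the 53 lists. Deep-layer neurons send axons out of the cortex to thalamus, brainstem and spinal cord. Of 23 measured deep-layer markers 7 rose and 1 fell, while the median log2 fold of the list was 0.04, so the rises were those of part of the list. Tshz2, a zinc finger factor, rose from 2.35 to 10.9 RPKM, a ratio of 4.64. Nr4a2, an orphan receptor of deep-layer and claustral neurons, rose from 8.22 to 18.1 RPKM, and Ldb2, a LIM-domain cofactor of corticospinal neurons, from 11.1 to 22.6. Etv1, an ETS factor of layer V, rose from 10.3 to 18.05 RPKM, and Sla, a Src-like adaptor, from 9.23 to 15.4.

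Crym, a thyroid hormone binding protein of corticospinal neurons, was the most abundant of them and rose from 298 to 472 RPKM, a ratio of 1.59. Fezf2, the factor that specifies subcerebral projection neurons, rose from 11.0 to 15.8 RPKM (q = 0.0375, the authors' deposited table). The member that fell was Sulf1, a heparan sulfatase, from 2.29 to 1.14 RPKM, named after its value was seen. Members that did not pass the test included Pcp4, a calmodulin regulator, at 518 RPKM in Het and 478 in KO, and Bcl11b, the partner factor of corticospinal identity, at 25.4 and 28.7. Of 16 upper-layer markers 1 rose, Otof, from 0.552 to 1.19 RPKM, and their median log2 fold was -0.02.

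On the log2(RPKM + 1) scale the largest called rise was that of Nts, the precursor of the neuropeptide neurotensin. Nts rose from 7.56 to 42.8 RPKM, a ratio of 5.66. Grp, the precursor of gastrin-releasing peptide, rose from 19.6 to 38.5 RPKM. Rxfp1, the receptor of the peptide relaxin, rose from 0.932 to 4.78 RPKM. Sst, the interneuron peptide somatostatin, stood at 251 and 339 RPKM and missed the threshold (q = 0.0513, the authors' deposited table). WT levels were 12.998 RPKM for Nts, 37.0 for Grp and 1.28 for Rxfp1. Other genes among the 15 largest rises were Ndrg1, a stress-responsive protein, from 4.49 to 14.9 RPKM, and Prph, the intermediate filament peripherin, from 5.84 to 14.2. Met, the hepatocyte growth factor receptor, rose from 1.30 to 3.35 RPKM, Nov, a matricellular protein, from 38.8 to 73.6, and Dsc3, a desmosomal cadherin, from 0.105 to 1.18. With a pseudocount of 0.1 Dsc3 had the larger log2 fold, 2.64 against 2.48 for Nts.

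Markers of the hippocampus, which borders the cortex, went both ways. Of 16 measured markers 5 fell and 2 rose (9 lower and 2 higher at an unadjusted p below 0.05, the authors' deposited table). Their median log2 fold was -0.30, and their summed level was 531 RPKM in Het and 476 in KO. Wfs1, the endoplasmic reticulum protein wolframin of CA1 cells, fell from 34.6 to 20.95 RPKM. Iyd, an iodotyrosine deiodinase, fell from 7.996 to 3.63 RPKM and Lct, the enzyme lactase, from 4.78 to 2.52. Tspan18, a tetraspanin, fell from 25.97 to 18.2 RPKM (q = 0.0154, the authors' deposited table), and Tdo2, a tryptophan dioxygenase, from 6.90 to 4.05 (q = 0.0412, the authors' deposited table). The members that rose were Cpne7, a copine, from 24.2 to 53.8 RPKM, and Fibcd1, an acetyl-binding receptor, from 17.1 to 28.9. Prox1, the defining factor of dentate granule cells, stood at 28.2 and 22.6 RPKM and was not called (q = 0.285, the authors' deposited table). WT was at 116 RPKM for Cpne7 and 39.3 for Fibcd1, above both mutant genotypes.

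Thalamic markers were divided too, with 2 of 12 higher and 2 lower. Slc17a6 and Cbln1, a synaptic organizer that went from 2.71 to 4.80 RPKM (q = 0.0154, the authors' deposited table), rose. Prkcd, a protein kinase C isoform, fell from 22.5 to 13.5 RPKM, and Zic1, a zinc finger factor, from 5.50 to 3.39 (q = 0.0154, the authors' deposited table). The part of regional markers in the layer and receptor genes was not tested.

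**Figure D4:**
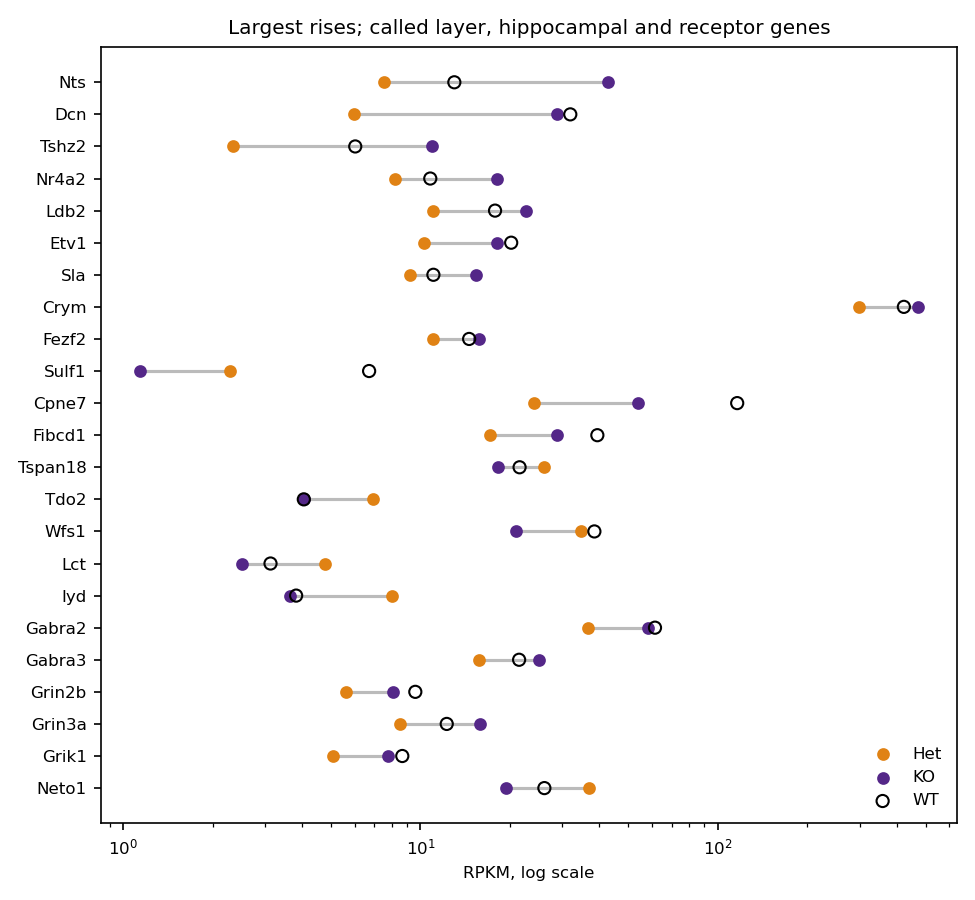
RPKM on a log scale in Het (orange), KO (purple) and WT (open circles), 1 pooled value per genotype. Genes drawn are Nts, Dcn, the called deep-layer and hippocampal markers, and Gabra2, Gabra3, Grin2b, Grin3a, Grik1 and Neto1. The deep-layer markers from Tshz2 to Fezf2 lie to the right in KO, as with Crym at 298 in Het and 472 in KO, while Wfs1, Lct and Iyd lie to the left.

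Receptors for the main fast transmitters rose in a few subunits. Among 6 measured NMDA receptor subunits 2 rose and 0 fell, also at an unadjusted p below 0.05 in the authors' deposited table. Grin3a, the glycine-binding subunit that lowers calcium flow, rose from 8.53 to 15.8 RPKM, a ratio of 1.85. Grin2b, the subunit that dominates early in development, rose from 5.63 to 8.06, a ratio of 1.43. The obligatory subunit Grin1 stood at 108 and 111 RPKM and was not called. Among 14 GABA receptor genes 2 rose: Gabra2, from 36.6 to 58.5 RPKM, and Gabra3, from 15.7 to 25.1, both alpha subunits that set the benzodiazepine response. Gabra5, an extrasynaptic alpha subunit, stood at 126 and 108. Of 17 AMPA and kainate genes 1 rose and 1 fell. Grik1, a kainate receptor subunit, rose from 5.09 to 7.78 RPKM (q = 0.0242, the authors' deposited table). Neto1, an auxiliary protein of kainate and NMDA receptors, fell from 36.9 to 19.4 RPKM, a ratio of 1.90.

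All called potassium channel genes fell. Of 37 measured genes 5 fell and 0 rose (9 and 5 at an unadjusted p below 0.05, the authors' deposited table), while the median log2 fold of the list was -0.03. Kcnv1, a silent subunit that modifies Kv channels, fell from 11.6 to 7.33 RPKM and Kcnh1, an ether-a-go-go channel, from 7.37 to 4.84. Kcna1, the Shaker channel of axons, fell from 17.8 to 12.8 RPKM (q = 0.0123, the authors' deposited table). Kcnab1, a Shaker beta subunit, fell from 40.1 to 28.9 RPKM and Kcns2, another silent subunit, from 8.25 to 5.81 (q = 0.0294 and 0.0312, the authors' deposited table). None of 23 calcium and sodium channel genes was called, while 3 were higher and 1 lower at an unadjusted p below 0.05 in the authors' deposited table. Postsynaptic scaffolds had 1 rise among 25 genes, Shank1, from 26.8 to 37.8 RPKM (q = 0.0123, the authors' deposited table). Presynaptic release genes had 1 among 33, Slc17a6.

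Axon guidance genes had 1 rise and 3 falls among 38 (6 higher and 8 lower at an unadjusted p below 0.05, the authors' deposited table). Ntng1, the netrin-related netrin-G1, rose from 2.03 to 4.67 RPKM. Epha7 fell, as given above, as did the semaphorins Sema3c, from 47.0 to 33.5 RPKM (q = 0.00879, the authors' deposited table), and Sema5a, from 22.1 to 15.9 (q = 0.0154, the authors' deposited table). Of 27 cell cycle and progenitor genes 3 fell and 0 rose (8 and 0 at an unadjusted p below 0.05, the authors' deposited table), with a median log2 fold of -0.18. Rrm2, the ribonucleotide reductase subunit needed for DNA synthesis, fell from 7.95 to 3.77 RPKM. Ccnb1, the mitotic cyclin, fell from 3.55 to 1.74 RPKM, and Aurkb, a mitotic kinase, from 2.38 to 1.13 (q = 0.0123, the authors' deposited table). These 3 stood at 3.49, 1.34 and 0.830 RPKM in WT.

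Immediate early genes, which neuronal activity switches on, had 3 rises among 26 and a median log2 fold of -0.09. At an unadjusted p below 0.05 in the authors' deposited table, 5 were higher and 6 lower. Fosl2, an AP-1 factor, rose from 5.19 to 9.13 RPKM and Sik1, a salt-inducible kinase, from 4.36 to 6.45 (q = 0.0154, the authors' deposited table), beside Nr4a2. Egr1 stood at 35.1 and 27.7 RPKM and was not called. Phosphodiesterases had 1 rise among 17, Pde1a, which calmodulin activates, from 39.4 to 55.3 RPKM (q = 0.00879, the authors' deposited table). Among long noncoding RNAs of the brain, 2 of 13 rose. Snhg11, a small nucleolar RNA host gene of neurons, rose from 114 to 213 RPKM, and Miat from 61.3 to 84.0 (q = 0.0355, the authors' deposited table). Of 78 cytosolic ribosomal protein genes 1 rose, while 70 lay above 0 and the median log2 fold was 0.20. At an unadjusted p below 0.05 in the authors' deposited table, 20 were higher and 0 lower, and with p-values adjusted over the 3 tables together 5 were higher. The member that rose was Rpl36, from 397 to 553 RPKM (q = 0.0214, the authors' deposited table).

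**Figure D5:**
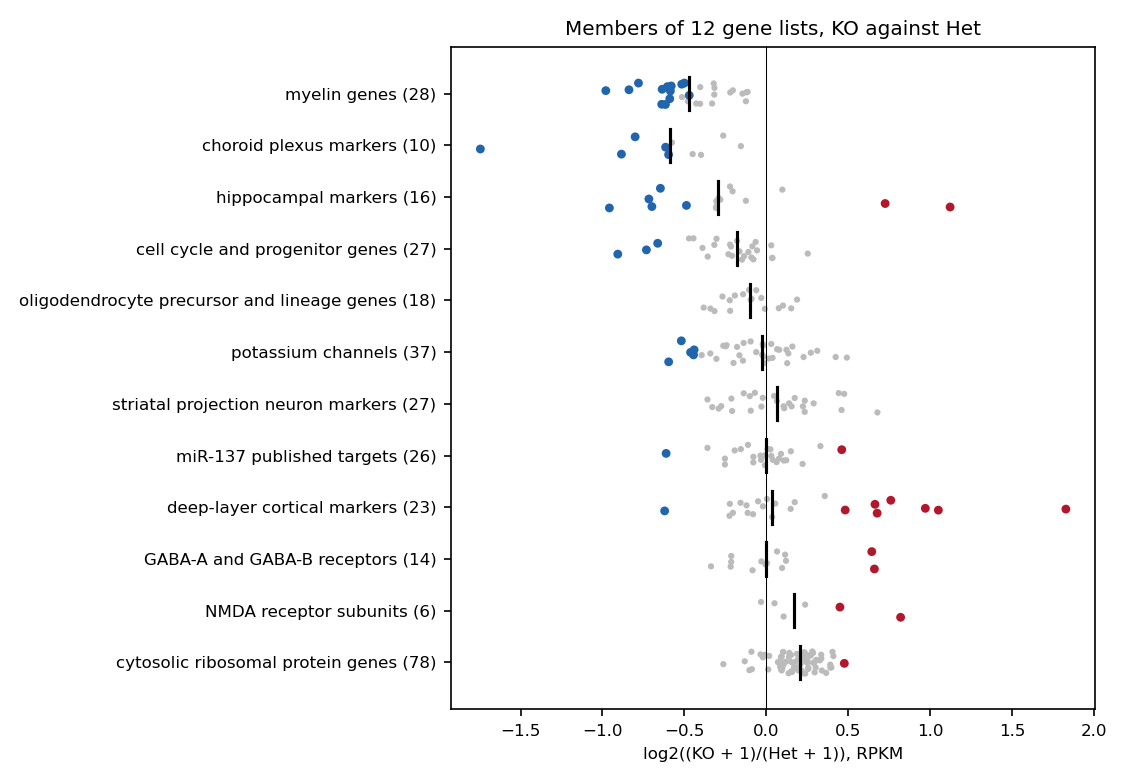
Log2((KO + 1)/(Het + 1)) of RPKM for the measured members of 12 gene lists, with the number of members in brackets; red points rose, blue points fell, grey points were not called and black bars are medians. Every myelin gene and choroid plexus marker lies below 0, with medians of -0.47 and -0.59, whereas 7 deep-layer markers lie apart to the right of a median of 0.04.

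Taking all 53 lists, 20 had no called member, and 85 called genes belonged to any list. Lists without a call included nuclear respiratory chain genes, 44 measured with a median log2 fold of 0.08, cholesterol synthesis genes, 27 with 0.03, and circadian clock genes, 18 with 0.12. In the authors' deposited table an unadjusted p below 0.05 marked 4 respiratory genes higher and 0 lower, 0 and 1 cholesterol genes, and 1 and 1 clock genes. The microRNA machinery, 13 genes with a median of 0.09, had none either, with 3 higher and 0 lower at an unadjusted p below 0.05 in the authors' deposited table. Drosha, the nuclease that releases hairpins, stood at 25.4 and 32.2 RPKM (q = 0.194, the authors' deposited table), and Ago1 at 22.6 and 23.8.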

How the data were processed

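Total RNA from mouse cortex was made into TruSeq RNA v2 libraries and read as paired ends on a HiSeq 2000, per the labels' protocols. Tools in the submitters' processing notes are Cuffdiff 2.2.1, TopHat2 2.0.13 and CASAVA 1.4, with build mm9, while their roles and the annotation were not given in the sources used here. The authors deposited 3 pairwise tables, which per the file headers hold 1 RPKM value per genotype with the p-value and q-value of each gene. The libraries of a genotype are thus pooled, depth is unknown, and no test was run here. Recomputing Benjamini-Hochberg values from the deposited p-values below 1 gave back the deposited q, and the smallest p was 5e-05. Date-like names (27) and entries naming several genes (99, of which 2 were called) were counted and not named. The median difference of a gene's value between tables was 0.675% for Het and 0.471% for KO.

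Folds are log2(RPKM + 1) in KO minus that in Het. Named genes were Mir137, Dpyd, Pde10a and measured published targets, the 15 largest called rises and falls, the 10 most abundant called genes, and per list up to 6 called and 2 uncalled members. Others were chosen after their values were seen. The compared genes and lists were chosen with earlier results of these data known. MicroRNA sequences came from RefSeq (GRCm38.p6), and 3′ UTRs and lengths from GENCODE M21 by gene name, covering 90.7% and 95.3% of measured genes. Sites of miR-124-3p were not analysed here. Some genes counted in lists and plotted among all genes are not reported here by name. The steps were tested on simulated data. Alternatives are given at the end. Scripts ran under Python 3.11.15 (pandas 2.3.3, numpy 2.4.6, matplotlib 3.10.9, scipy 1.17.1).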

Additional observations from a re-analysis of the deposited data

How the results depend on the processing

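With a q threshold of 0.01 the genes higher in KO numbered 79 and those lower 80, and with p-values adjusted over the 3 tables together they numbered 216 and 209, against 126 and 132. The q threshold of 0.01 left 7 myelin genes, 3 choroid plexus markers, 3 hippocampal markers and 2 potassium channel genes lower in KO. A minimum of 5 RPKM left 3 choroid plexus markers lower. The share of measured genes past 1.5-fold was 0.775% higher and 1.81% lower. It became 0.455% and 1.05% with no minimum, 1.402% and 2.43% with a pseudocount of 0.1, and 1.55% and 2.55% with a pseudocount of 0.01. Without rows listed at 0, a setting chosen after seeing the data, the lower share was 0.798%. The choroid plexus median log2 fold of -0.59 ran from -0.40 with no minimum through -0.74 with a minimum of 5 RPKM and -0.81 with a pseudocount of 0.1 to -0.84 with 0.01. The deep-layer median was 0.17 with a minimum of 5 RPKM. With the shortest 3′ UTR 3 genes with a miR-137 8mer fell in place of 5. Over 4 ways to compute the fold (other pseudocounts, recentring, and values from the tables against WT) the 96 called genes followed had 0 changes of sign. That outcome was fixed in advance and is no check of the calls. A pseudocount cannot change a sign, and recentring took off a median of only -0.000903. The values from the tables against WT came from the same libraries and were nearly the same. No paired analysis was possible because the tables hold 1 pooled value per genotype. For the same reason leaving out each replicate could not be run, and the weight of any library in these calls is unknown.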

Other observations

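Besides the short RNAs, rows for some RNA-processing and translation components are given here, of which Lars2 and Rpph1 were called. Lars2, a mitochondrial leucyl-tRNA synthetase, fell from 337 to 153 RPKM, and was at 140 in WT. Rpph1, the RNA component of ribonuclease P, fell from 13.9 to 3.59 RPKM (q = 0.0392, the authors' deposited table). Rn45s, the ribosomal RNA precursor, stood at 980 RPKM in Het, 521 in KO and 476 in WT, and its difference between KO and Het was not called (q = 0.290, the authors' deposited table). Rmrp, the RNA of a related ribonuclease, stood at 21.998, 8.70 and 3.92 RPKM (q = 0.153, the authors' deposited table). Rn45s and Rmrp were chosen after their values were seen, and whether these rows share a technical source was not tested.

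Secreted and signalling genes gave further single changes. Chgb, a granin of secretory granules, fell from 227 to 163 RPKM (q = 0.0355, the authors' deposited table). Tmsb10, an actin-binding thymosin of immature neurons, rose from 443 to 598 RPKM (q = 0.0355, the authors' deposited table). Zbtb16, a transcription factor that glucocorticoids induce, rose from 4.41 to 6.90 RPKM and was at 11.2 in WT. Hist1h2bc, a histone H2B gene, fell from 27.5 to 14.96 RPKM. Hspa2, a chaperone, fell from 26.3 to 19.3 RPKM (q = 0.0412, the authors' deposited table). Pcgf2, a polycomb subunit, rose from 9.82 to 14.1 RPKM (q = 0.0412, the authors' deposited table).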
